A study of Mus musculus with 9 samples.

Results

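The suppressor of cytokine signalling family comprises 8 genes in the mouse, Cish and Socs1 to Socs7, and all 8 were among the 24421 gene symbols counted by RNA sequencing in each of 9 mouse libraries. Its members were taken by symbol, and the family was chosen by the read counts of Cish in tumour MDC, tumour PBS and wild type PBS muscle, so values from those comparisons are descriptions without a test. The 7 muscle libraries were 1 from tumour-bearing mice given MDC, 1 from tumour-bearing mice given PBS, 1 labelled beta-arrestin knockout and given DKK1, 1 labelled beta-arrestin knockout and given PBS, 1 wild type given DKK1 and 2 wild type given PBS. The 2 kidney libraries were 1 from tumour-bearing and 1 from wild type mice, both given PBS. DKK1 is a secreted antagonist of Wnt signalling, and the series title concerns LRP6, a Wnt co-receptor that DKK1 binds, and cachexia, the loss of muscle and fat in cancer. The labels name no strain, age, tumour, muscle or deleted beta-arrestin gene, do not spell out MDC, and do not say whether a library came from 1 animal or from pooled animals. Because 5 of the 6 muscle groups and both kidney groups had 1 library, most values have no replicate, and nothing says that the wild type PBS pair came from separate animals, so any p value measures only the spread between these libraries.

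Cytokines and hormones such as growth hormone, prolactin, interleukin-6 and the interferons act through receptors that switch on JAK kinases, which phosphorylate STAT transcription factors. STAT factors in turn raise transcription of several family members, whose proteins bind phosphorylated receptors or kinases through an SH2 domain and recruit an elongin and cullin-5 ubiquitin ligase through the SOCS box, which closes a negative feedback loop. Cish and Socs2 are the classical feedback genes of STAT5 and growth hormone, Socs3 is that of STAT3 and interleukin-6, Socs1 is that of interferon-gamma, and Socs4 to Socs7 are less tied to cytokine feedback.

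The general STAT motif was searched at the gene starts of the family. RefSeq windows of the mouse build GRCm38.p6, which run from 250 bases before to 50 bases after a gene start, were at hand for Cish, Socs1, Socs3 and Socs4, 4 of the 8 genes. The motif is TTCNNNGAA, its own reverse complement, and both strands were read. The Cish and Socs3 stretches that hold it are shown because these genes carried the largest differences of muscle and of kidney, and capitals mark the motif:
Cish, chr9:107296654-107296683, plus strand: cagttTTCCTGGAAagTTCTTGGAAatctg
Socs3, chr11:117969502-117969531, minus strand: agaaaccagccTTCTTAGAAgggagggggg
The Cish window held 2 matches, which begin at bases 1 and 12 counted from the annotated start as base 1, inside an annotated exon. The Socs3 window held 1 match, from base -154 to base -146, upstream of the start. Among all 32851 windows of the table, 8.30% held the motif at least once and 0.457% at least 2 times. The Socs1 and Socs4 windows held no such letters. A match is a run of letters and not a measured binding site.

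Total counts were 44421797 in the tumour kidney library and 42480786 in the wild type one, and ran from 21358854 to 32607835 in muscle. Values are CPM, counts scaled by library size with TMM within a tissue, unless RPKM, which is also divided by gene length, is named. Defining genes of skeletal muscle summed to 81027 to 235396 CPM in muscle libraries and to 230 CPM in tumour and 303 CPM in wild type kidney, as the labels have it. Kidney genes summed to at most 85.0 CPM in muscle. Slow fibre genes summed to 49.6 to 6302 CPM in muscle, so the libraries differed widely in this respect. Arrb1 and Arrb2, the beta-arrestin genes, were at 28.2 and 7.98 CPM in labelled knockout DKK1 muscle and 20.5 and 9.61 CPM in labelled knockout PBS muscle, against 18.8 ± 2.12 and 7.72 ± 0.186 CPM in wild type PBS muscle (SD, n = 2). Both were at or above the wild type PBS mean in each library with the knockout label, and every statement on that genotype is therefore one about the labels. With bulk tissue, fewer cells of a type and less RNA per cell cannot be told apart.

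Cish was the member with the widest range in muscle. It lies on chromosome 9 from 107296026 to 107302784 (build GRCm38, plus strand), and Gm17040 and Gm17041 overlap it on the other strand. Those 2 genes are not rows of the tables and the strand setting of the counting is not given in the sources used here, so reads from either strand may be in its count. Cish was at 8.40 CPM in tumour MDC, 103 CPM in tumour PBS, 32.3 CPM in labelled knockout DKK1, 33.8 CPM in labelled knockout PBS and 55.9 CPM in wild type DKK1 muscle, against 11.7 and 7.29 CPM in wild type PBS muscle. Tumour PBS stood highest, the wild type DKK1 library and both libraries labelled knockout stood between, and the tumour MDC library lay within the wild type PBS pair. The highest level was 14.1 times the lowest, where the other members with counts in every muscle library spanned 2.01 to 4.64 times.

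**Figure D1:**
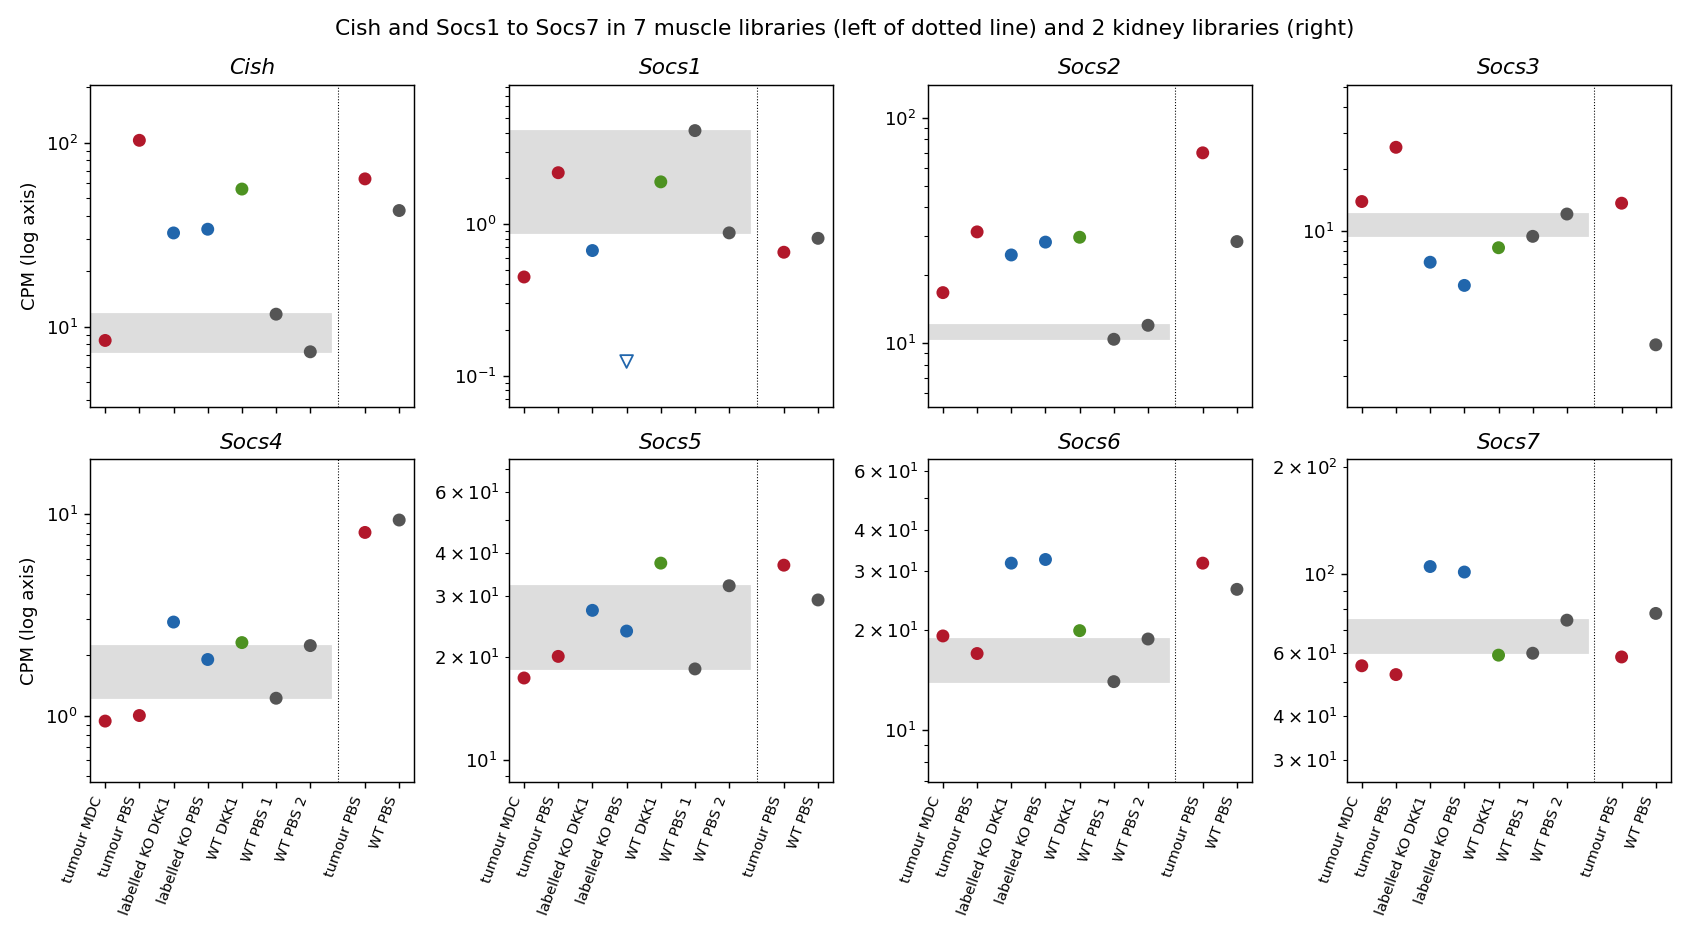
Normalised level (CPM, log axis, its own range in each panel) of the 8 family genes in 7 muscle libraries left of the dotted line and 2 kidney libraries right of it; each point is 1 library, the grey band spans the 2 wild type PBS muscle libraries, and the open triangle marks 0 counts, drawn at a limit of 3 counts. Cish and Socs2 lie above the band in tumour PBS, both libraries labelled knockout and wild type DKK1, Socs2 also in tumour MDC, while in muscle Socs3 is above it in the 2 tumour libraries only.

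A change past the size rule was a difference of 2-fold or more with at least 100 counts in the higher library, in the same direction against both wild type libraries where wild type PBS muscle is the reference. In tumour PBS muscle, 3 of the 6 members with enough counts were higher than in wild type PBS muscle and 0 were lower, where 1.35% of all 10981 genes with enough counts were higher and 0.419% lower. The 3 were Cish, Socs2 and Socs3. For Cish the tumour PBS library was 8.81 times the first wild type library and 14.1 times the second (95% intervals 7.75 to 10.1 and 12.1 to 16.6, counting error only), a mean log2 change of 3.47. The first of these is the comparison within a set, since the letter in the names of the tables puts both tumour muscle libraries and that wild type library together.

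Socs2, which restrains growth hormone receptor signalling, was at 31.1 CPM in tumour PBS muscle, against 10.4 and 12.0 CPM in wild type PBS muscle. This is 2.99 and 2.60 times those libraries, a mean log2 change of 1.47. Socs3, which binds the interleukin-6 receptor subunit gp130 and JAK kinases, was at 25.5 CPM in tumour PBS muscle, against 9.47 and 12.1 CPM in wild type PBS muscle. Its ratios of 2.69 and 2.099 give a mean log2 change of 1.24, and it lies just inside the size rule. Among members just outside, the largest mean log2 change in size of a member with enough counts was -0.35 for Socs7.

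Tumour MDC muscle had 1 member lower than tumour PBS muscle, Cish, where 3.22% of 11005 genes were lower and 1.17% higher. Cish at 8.40 CPM in tumour MDC muscle was 0.0817 of its 103 CPM in tumour PBS muscle (95% interval 0.0702 to 0.0946), a log2 change of -3.60. Socs2 was at 16.8 CPM in tumour MDC and 31.1 CPM in tumour PBS muscle, a log2 change of -0.89. Socs3 was at 13.9 CPM in tumour MDC and 25.5 CPM in tumour PBS muscle, a log2 change of -0.87, so that both lay short of 2-fold. Socs1, the interferon feedback gene, had 10 counts in tumour MDC and 74 in tumour PBS muscle, 0.447 and 2.18 CPM in those libraries. This ratio of 0.205 (95% interval 0.0945 to 0.399) rests on too few counts for the size rule. Socs4 to Socs7 had log2 changes between -0.21 and 0.17. Against wild type PBS muscle, tumour MDC muscle had 0 members past the size rule, beside 0.776% of 10048 genes higher and 0.717% lower. Cish there had log2 changes of -0.47 and 0.20 against the 2 wild type libraries, and Socs2 of 0.68 and 0.48.

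Several cell type lists differed along with Cish and Socs3 in the tumour-bearing muscle. The 12 neutrophil genes, among them S100a8, S100a9 and Ngp, summed to 45.1 CPM in tumour MDC and 355 CPM in tumour PBS muscle. Their sums in wild type PBS muscle were 14.5 and 7.59 CPM. Of the 12, 10 were higher in tumour PBS than in wild type PBS, beside 1.35% of all genes with enough counts. None of the 12 was at 0 in either tumour library, while Elane and Mpo, made by neutrophil precursors, were at 0 in both wild type PBS libraries. Slow fibre genes summed to 1509 CPM in tumour MDC and 251 CPM in tumour PBS muscle, against 49.6 and 699 CPM in wild type PBS muscle, and 8 of 8 were higher in tumour MDC than in tumour PBS. Adipocyte genes summed to 526 CPM in tumour MDC and 1005 CPM in tumour PBS muscle, against 330 and 1295 CPM in wild type PBS muscle, with 6 of 8 lower in tumour MDC than in tumour PBS. Macrophage genes summed to 106 CPM in tumour MDC and 175 CPM in tumour PBS muscle, against 60.6 and 249.5 CPM in wild type PBS muscle. Of 10, 3 were lower in tumour MDC than in tumour PBS. In that comparison 1.17% of all genes with enough counts were higher and 3.22% lower. The part of these cells and fibres in the results was not tested. In the other libraries with high Cish the neutrophil sum was 2.25 CPM in labelled knockout DKK1, 2.97 CPM in labelled knockout PBS and 4.02 CPM in wild type DKK1 muscle, below both wild type PBS values. T and NK cell genes, the list of another cell type in which Cish is well known, summed to 5.68 CPM in tumour PBS muscle. Their wild type PBS sums were 4.87 and 7.07 CPM. The sums were 7.52 CPM in labelled knockout DKK1, 7.88 CPM in labelled knockout PBS and 11.2 CPM in wild type DKK1 muscle, above both. Of these, Cd247 alone made 5.98, 5.49 and 7.73 CPM, against 3.61 and 3.14 CPM in wild type PBS muscle. Cd3e was at 0.789, 0.784 and 1.56 CPM, between its wild type PBS values of 0.0937 and 2.57 CPM. In the same order 5, 3 and 2 of the 12 genes were at 0. Only 1 of the 12 had enough counts for the size rule. The part of these cells was not tested either.

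In wild type DKK1 muscle, 2 members were higher than in wild type PBS muscle, Cish and Socs2, and 0 were lower, where 2.34% of 11443 genes were higher and 0.245% lower. Cish, at 55.9 CPM in DKK1 muscle, was 4.79 and 7.67 times the wild type PBS libraries (95% intervals 4.20 to 5.48 and 6.55 to 9.03), a mean log2 change of 2.59. By the smaller of its log2 changes against the pair, 2.25, it ranked 5 among those 11443 genes. Socs2, at 29.5 CPM in DKK1 muscle against 10.4 and 12.0 CPM in wild type PBS muscle, was 2.83 and 2.46 times those libraries, and ranked 99. In edgeR's quasi-likelihood fit over all 15482 muscle genes, the log2 change of Cish was 2.56 (unadjusted p = 0.000463, Benjamini-Hochberg adjusted p = 1) and that of Socs2 was 1.40 (unadjusted p = 0.0298, adjusted p = 1). Neither passed the test, and these tests use the same wild type PBS pair against which Cish was first noticed in tumour muscle, so they are not independent of that choice.

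The remaining members in DKK1 muscle lay nearer to the pair. Socs5, linked to interleukin-4 and epidermal growth factor receptor signalling, at 37.4 CPM in wild type DKK1 muscle against 18.4 and 32.1 CPM in wild type PBS muscle, was above both. Socs3, at 8.34 CPM in wild type DKK1 muscle against 9.47 and 12.1 CPM in wild type PBS muscle, was below both, with a mean log2 change of -0.36 under TMM and 0.12 when libraries are scaled by total counts alone. Endothelial genes summed to 785 CPM in wild type DKK1 muscle, against 236 and 418 CPM in wild type PBS muscle, and T and NK cell genes to 11.2 CPM, against 4.87 and 7.07 CPM. Within the T and NK sums Cd247 made 7.73 CPM in wild type DKK1 muscle, against 3.61 and 3.14 CPM. The part of these cells in the difference was not tested.

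In the library labelled knockout PBS, 2 members were higher than in wild type PBS muscle and 0 were lower, where 0.795% of 10190 genes were higher and 0.658% lower. They were again Cish and Socs2. The tests below use the wild type PBS pair against which Cish was first noticed, so they are not independent of that choice. Cish, at 33.8 CPM in labelled knockout PBS muscle, was 2.90 and 4.64 times the wild type PBS libraries, a mean log2 change of 1.87 (edgeR unadjusted p = 0.00634, adjusted p = 1). Socs2, at 28.1 CPM in labelled knockout PBS muscle against 10.4 and 12.0 CPM in wild type PBS muscle, was 2.70 and 2.34 times them (edgeR unadjusted p = 0.0384, adjusted p = 1). Adipocyte genes summed to 159 CPM in labelled knockout PBS muscle, against 330 and 1295 CPM in wild type PBS muscle, with 4 of the 6 with enough counts lower, a median log2 change of -3.27 over the 8 and none at 0. Their part in the result was not tested. The second of each pair of Cish and Socs2 ratios is the within-set one. The set letter joins both libraries labelled knockout, wild type DKK1 and the second wild type PBS library. That wild type library had the lowest total counts, 21358854, and 8.29% of them were from Rn45s, a ribosomal RNA gene. The share was 1.05% in labelled knockout DKK1, 0.359% in labelled knockout PBS and 0.622% in wild type DKK1 muscle.

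Socs6 and Socs7, 2 members that bind insulin and growth factor receptor signalling proteins, had their highest muscle levels in the libraries labelled knockout. Socs6 was at 31.7 CPM in labelled knockout DKK1, 32.6 CPM in labelled knockout PBS and 19.9 CPM in wild type DKK1 muscle, against 13.97 and 18.8 CPM in wild type PBS muscle. Its ratios of 2.33 and 1.73 in labelled knockout PBS over wild type PBS put it just outside the size rule (edgeR unadjusted p = 0.114, adjusted p = 1). Socs7 was at 105 CPM in labelled knockout DKK1, 102 CPM in labelled knockout PBS and 59.3 CPM in wild type DKK1 muscle, against 60.0 and 74.4 CPM in wild type PBS muscle. Both libraries labelled knockout lay above the other 5 muscle libraries for these 2 of the 6 members with enough counts, and below them for 1, Socs3, where 10.4% of 11928 genes lay above and 9.31% below. Socs6 lies on chromosome 18 and has 3 processed pseudogenes within its bounds, whose share of its count cannot be told apart here.

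Socs3 had its lowest muscle values in the libraries labelled knockout. In CPM, and on few counts, Socs1 was below its wild type PBS values there, as it was in tumour MDC muscle. Socs3 was at 7.10 CPM in labelled knockout DKK1 and 5.49 CPM in labelled knockout PBS muscle, against 9.47 and 12.1 CPM in wild type PBS muscle, a mean log2 change of -0.96 for PBS (edgeR unadjusted p = 0.196, adjusted p = 1). Socs1 had 22 counts in labelled knockout DKK1 and 0 counts in labelled knockout PBS muscle, against 88 and 20 counts in wild type PBS muscle. edgeR gave it an unadjusted p of 0.00596 and an adjusted p of 1 for labelled knockout PBS. A limit of 3 counts puts the labelled knockout PBS library at least 33.3-fold and at least 7.05-fold lower than those. The wild type libraries themselves differed 4.73-fold in Socs1 CPM, more than in any other member, and its highest count in any muscle library was 88. Socs1 was at 2.18 CPM in tumour PBS muscle, between its wild type PBS values of 4.12 and 0.873 CPM, and had 29 counts in tumour and 34 counts in wild type kidney.

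DKK1 given to mice labelled knockout went with 0 members past the size rule relative to labelled knockout PBS, where 2.18% of 10838 genes were higher and 0.683% lower. Cish was at 32.3 CPM in labelled knockout DKK1 and 33.8 CPM in labelled knockout PBS muscle, a ratio of 0.954 (95% interval 0.871 to 1.05, edgeR unadjusted p = 0.925, adjusted p = 1). That log2 change was -0.07 under TMM and 0.06 under total counts. Slow fibre genes summed to 6302 CPM in labelled knockout DKK1 and 140 CPM in labelled knockout PBS muscle, with 8 of 8 higher, and their part in these values was not tested. Socs2 was at 24.6 CPM in labelled knockout DKK1 and 28.1 CPM in labelled knockout PBS muscle. The difference between the DKK1 effects under the labels was tested in the same edgeR fit, a contrast added after the values were seen. This contrast also uses the wild type PBS pair against which Cish was first noticed, so it is not independent of that choice. For Cish the effect with the knockout label was lower by a log2 difference of -2.63 (unadjusted p = 0.0119, adjusted p = 1), and this did not pass, as was so for all 15482 genes, of which 0 did and the smallest adjusted p was 0.826.

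Labelled knockout DKK1 against wild type DKK1 muscle also gave 0 members past the size rule, where 2.65% of 11601 genes were higher and 9.96% lower. Cish was at 32.3 CPM in labelled knockout DKK1 and 55.9 CPM in wild type DKK1 muscle, 0.577 of it (95% interval 0.536 to 0.622, edgeR unadjusted p = 0.276, adjusted p = 1). Socs7 was 1.77 times and Socs6 1.60 times the wild type DKK1 level, with intervals of 1.68 to 1.87 and 1.45 to 1.75 that cover counting error only. Adipocyte genes summed to 132 CPM in labelled knockout DKK1 muscle and 1083 CPM in wild type DKK1 muscle, and slow fibre genes to 6302 CPM, against 828 CPM. The part of these tissues in the differences was not tested.

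**Figure D2:**
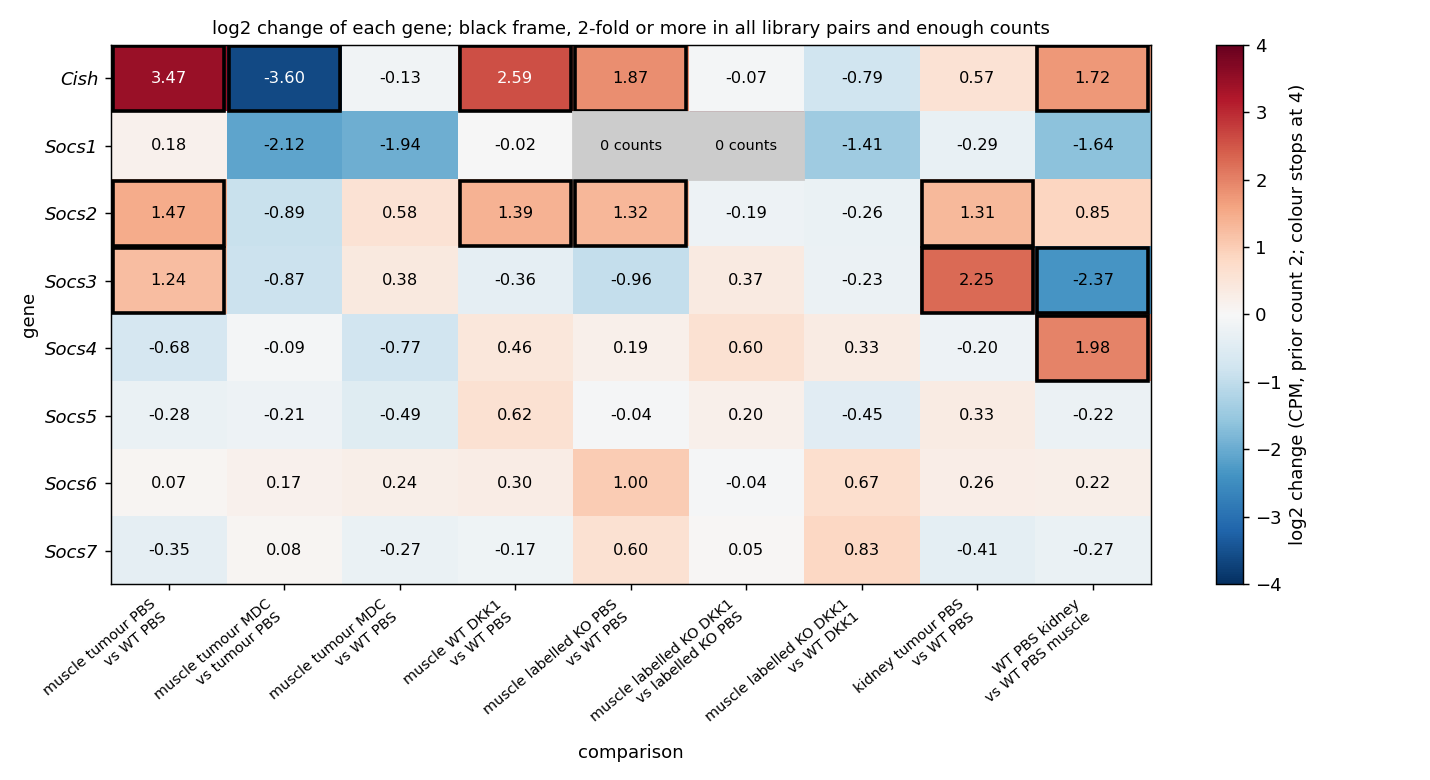
Log2 change (CPM with a prior count of 2; colour from -4 to 4) of each family gene, in rows, in 9 comparisons, in columns; black frames mark changes past the size rule and grey cells a library at 0 counts. The framed muscle changes belong to Cish, Socs2 and Socs3, and those of tumour kidney to Socs2 and Socs3.

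In the tumour kidney library Socs2 and Socs3 passed the size rule, as in tumour PBS muscle, and Cish did not. With 1 library on each side there is no test, and these 2 members were higher and 0 lower, where 5.69% of 12897 genes were higher and 4.03% lower. Socs3 was at 13.7 CPM in tumour and 2.84 CPM in wild type kidney, a ratio of 4.82 (95% interval 3.96 to 5.92). Socs2 was at 69.8 CPM in tumour and 28.2 CPM in wild type kidney, a ratio of 2.47 (95% interval 2.31 to 2.65). Cish, at 63.5 CPM in tumour and 42.7 CPM in wild type kidney, was short of 2-fold with a ratio of 1.49 (95% interval 1.40 to 1.58). Of the others, Socs7 at 58.6 CPM in tumour and 77.7 CPM in wild type kidney had the lowest log2 change of those with 100 counts, -0.41, and Socs4, Socs5 and Socs6 lay between -0.20 and 0.33. Socs3 thus had the largest log2 change of the family in tumour kidney, 2.25, and Cish the largest in tumour PBS muscle. An edgeR fit of all 9 libraries put the tumour effect in muscle minus that in kidney at a log2 of 2.89 for Cish and -1.01 for Socs3. These are effect sizes only, because the family was chosen by Cish in tumour muscle and most groups had 1 library.

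Other cell type lists moved with the kidney values, where 5.69% of all genes with enough counts were higher and 4.03% lower. Adipocyte genes summed to 1574 CPM in tumour and 183 CPM in wild type kidney, with 7 of 8 higher and none at 0. Neutrophil genes summed to 22.5 CPM in tumour and 2.27 CPM in wild type kidney, with 2 of 12 higher and Camp, Elane and Mpo at 0 in wild type kidney. Kidney genes summed to 17563 CPM in tumour and 35497 CPM in wild type kidney, with 2 of 10 higher and 2 lower. Their part in the Socs2 and Socs3 differences was not tested.

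The genes that STAT3 is known to induce could be set beside Socs3. In tumour kidney, 9 of the 13 with enough counts were higher and 0 lower than in wild type kidney. Over all 12897 genes with enough counts, 5.69% were higher and 4.03% lower. The median log2 change was 1.39 over the 14 listed, beside a median of 0.00 over all genes tested. Hp, the haemoglobin-binding acute phase protein haptoglobin, was at 132 CPM in tumour and 4.42 CPM in wild type kidney. Adipocyte genes summed to 1574 and 183 CPM in those libraries. In wild type PBS muscle Hp was at 6.70 and 230 CPM, where adipocyte genes summed to 330 and 1295 CPM. The part of adipocytes in the Hp values was not tested. Lcn2, the iron-sequestering lipocalin, was at 77.3 CPM in tumour and 2.74 CPM in wild type kidney, and Fgg, a fibrinogen chain, at 22.8 CPM in tumour and 2.65 CPM in wild type kidney. Stat3 itself was at 216 CPM in tumour and 85.0 CPM in wild type kidney, the 1 gene of 10 JAK and STAT genes past the size rule there. In tumour PBS muscle 5 of 12 STAT3-responsive genes were higher and 0 lower than in wild type PBS muscle. Over all 10981 genes with enough counts, 1.35% were higher and 0.419% lower. The median log2 change of the list was 1.18, beside 0.03 over all genes. Lcn2, also a neutrophil product, was at 20.6 CPM in tumour PBS muscle against 0.328 and 3.27 CPM in wild type PBS muscle. Bcl3, an NF-kappaB cofactor, was at 8.56 CPM against 1.64 and 1.75 CPM, and Lbp, the lipopolysaccharide-binding protein, at 16.9 CPM against 3.23 and 5.46 CPM.

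**Figure D3:**
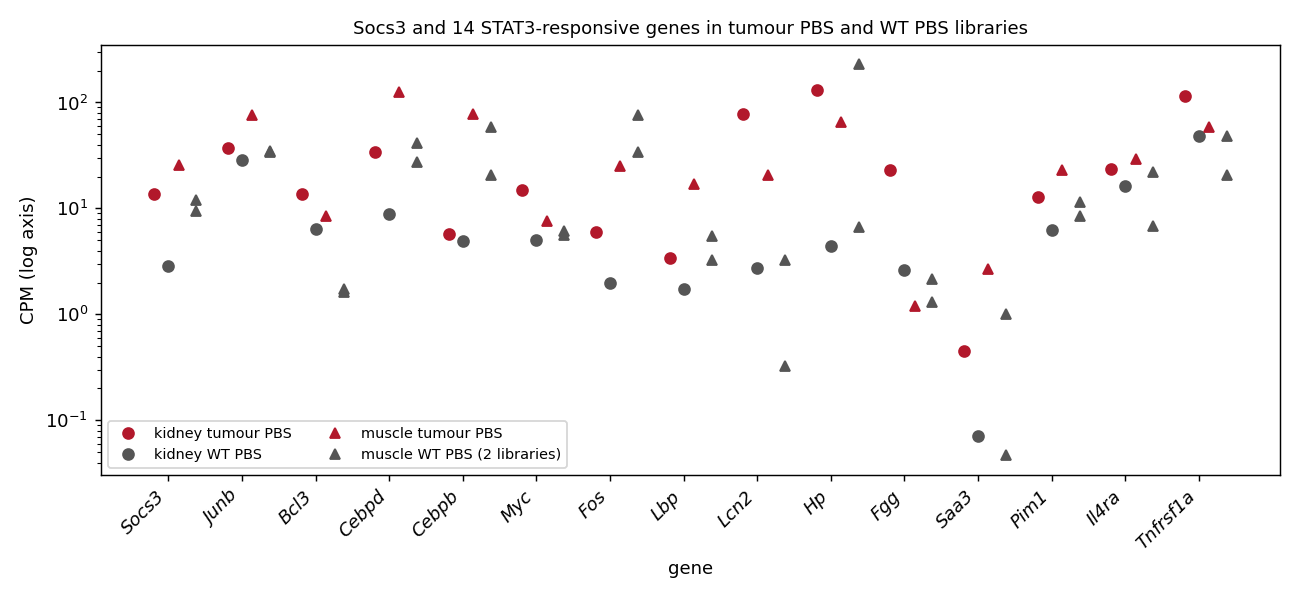
Normalised level (CPM, log axis) of Socs3 and the 14 listed STAT3-responsive genes in kidney (circles) and muscle (triangles); red points are tumour PBS libraries and grey points wild type PBS libraries, 1 in kidney and 2 in muscle. Hp, Lcn2 and Fgg are far apart in kidney, while in muscle the wild type values of Hp lie on both sides of the tumour value.

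The counts differed between the other muscle comparisons, beside these shares over all genes with enough counts. Tumour MDC against tumour PBS muscle had 1.17% higher and 3.22% lower. Against wild type PBS muscle, tumour PBS had 1.35% and 0.419%, wild type DKK1 2.34% and 0.245%, and labelled knockout PBS 0.795% and 0.658%. Labelled knockout DKK1 had 2.18% and 0.683% against labelled knockout PBS, and 2.65% and 9.96% against wild type DKK1. The STAT3-responsive genes are given first. Tumour MDC muscle had 3 of 12 lower than tumour PBS muscle and 0 higher, a median log2 change of -0.61, namely Lcn2, Fos and Hp. Wild type DKK1 muscle had 1 of 10 higher than wild type PBS muscle, Lbp, and labelled knockout PBS muscle had 0 of 9 past the size rule, with a median of -0.70. Labelled knockout DKK1 muscle had 3 of 10 higher than labelled knockout PBS muscle and 0 lower, Lbp, Fos and Cebpb, with a median of 0.23. Against wild type DKK1 muscle it had 2 of 10 higher, Fos and Cebpd, and 4 lower, among them Hp, Tnfrsf1a and Pim1, with a median of -0.64. Of 8 adipocyte genes, 8 were lower there, and 6 in tumour MDC against tumour PBS muscle, where Hp was also lower. Their part in the Hp values was not tested. The list of STAT5-responsive genes, other than Cish and Socs2, had 1 of 9 higher in tumour PBS than in wild type PBS muscle, Il2ra, with a median of 0.36. In wild type DKK1 muscle 2 of 9 were higher than in wild type PBS muscle, with a median of 0.40. They were Il2ra, the interleukin-2 receptor alpha chain, at 3.97 CPM against 0.844 and 1.27 CPM, and Igf1, the growth hormone-induced growth factor, at 50.6 CPM against 8.39 and 25.1 CPM. In labelled knockout PBS muscle 1 of 8 was higher, Igfals, an IGF-binding subunit, at 8.38 CPM against 3.09 and 2.09 CPM in wild type PBS muscle. In labelled knockout DKK1 muscle 2 of 9 were higher than in wild type DKK1 muscle, Igfals and Bcl6, and 3 lower, Igf1, Pim1 and Ccnd1, with a median of -0.31. Igf1 there was at 20.6 CPM in labelled knockout DKK1 and 50.6 CPM in wild type DKK1 muscle. Against labelled knockout PBS, labelled knockout DKK1 muscle had 0 of 8 past the size rule. In tumour MDC muscle 1 of 9 was higher than in tumour PBS muscle, Bcl6, a repressor gene that STAT5 is known to hold down. It was at 96.3 CPM in tumour MDC and 34.1 CPM in tumour PBS muscle, against 64.6 and 90.7 CPM in wild type PBS muscle. In the other libraries with high Cish, Bcl6 was at 96.8 CPM in labelled knockout DKK1, 90.5 CPM in labelled knockout PBS and 45.7 CPM in wild type DKK1 muscle. Of these, only wild type DKK1 muscle lay below both wild type PBS values.

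Upstream of the family stand the kinases and STAT factors. None of the 10 JAK and STAT genes with enough counts passed the size rule in tumour PBS, tumour MDC, wild type DKK1 or labelled knockout PBS muscle against wild type PBS muscle. Jak2, the kinase of the growth hormone receptor, was at 38.2 CPM in tumour MDC, 38.4 CPM in tumour PBS, 80.2 CPM in labelled knockout DKK1, 90.5 CPM in labelled knockout PBS and 41.1 CPM in wild type DKK1 muscle, against 60.1 and 44.1 CPM in wild type PBS muscle. Stat5b, the main STAT5 of muscle in these libraries, was at 333, 255, 258, 218 and 130 CPM in the same order, against 257 and 142 CPM in wild type PBS muscle, while Stat5a was at 8.99 to 15.5 CPM over the 7 libraries. Ghr, the growth hormone receptor, was at 137 to 244 CPM over all muscle libraries, and its wild type PBS values of 211 and 138 CPM covered the other libraries except labelled knockout PBS at 244 CPM and wild type DKK1 at 137 CPM.

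Receptor genes were higher in tumour PBS muscle for 5 of 22 and lower for 0, with a median log2 change of 0.55. Over all genes with enough counts, 1.35% were higher and 0.419% lower there. Csf3r, the receptor for granulocyte colony-stimulating factor and itself on the neutrophil list, was at 14.3 CPM against 0.891 and 4.23 CPM in wild type PBS muscle. Csf2rb2, the interleukin-3 receptor beta chain of the mouse, was at 15.2 CPM against 3.23 and 2.88 CPM, and Il2ra was at 3.53 CPM against 0.844 and 1.27 CPM. Tumour kidney had 5 of 23 receptors higher than wild type kidney, where 5.69% of all genes were higher and 4.03% lower. They were led by Prlr, the prolactin receptor, at 118 CPM in tumour and 31.3 CPM in wild type kidney. Osmr, the oncostatin M receptor, followed at 14.6 and 4.82 CPM in those libraries. Il6st, which encodes gp130, was at 129 CPM in tumour and 132 CPM in wild type kidney, and Il6ra at 4.28 and 2.53 CPM. Il6 reached at most 0.402 CPM in any library. Genes of the ligase partners, the elongins, cullins and RING subunits, had 0 of 6 past the size rule in tumour PBS, tumour MDC, wild type DKK1 or labelled knockout PBS muscle against wild type PBS muscle, and in tumour against wild type kidney. Other inhibitors, the PIAS proteins and phosphatases, had 0 of 11 in tumour PBS muscle, 0 of 12 in wild type DKK1 muscle and 1 of 12, Ptprc, lower in tumour kidney at 4.28 CPM against 9.997 CPM in wild type kidney.

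Per length, the family was ordered differently in the tissues. In wild type kidney Cish had the highest RPKM, 19.7, followed by Socs7 at 11.03, Socs2 at 10.4, Socs6 at 8.21, Socs5 at 6.62, Socs4 at 4.33, Socs3 at 1.04 and Socs1 at 0.598. In wild type PBS muscle Socs7 was highest with 9.05 ± 3.29 RPKM (SD, n = 2), then Socs5 with 5.56 ± 3.21, Socs6 with 4.85 ± 2.02, Cish with 3.93 ± 0.443, Socs2 with 3.90 ± 1.23 and Socs3 with 3.75 ± 1.45, then Socs1 with 1.56 ± 1.22 and Socs4 with 0.777 ± 0.469. From Socs5 to Socs3, and between Socs1 and Socs4, neighbours in this order lay within 1 SD of each other. In tumour PBS muscle the order began with Cish at 49.6 RPKM, Socs2 at 12.0 and Socs3 at 9.75, ahead of Socs7 at 7.77. In tumour kidney it began with Cish at 29.5 and Socs2 at 26.0 RPKM.

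With all 9 libraries scaled together, wild type kidney had 2 members higher than wild type muscle, Cish and Socs4, and 1 lower, Socs3, where 25.3% of 12870 genes were higher and 14% lower. The log2 changes of wild type kidney against the 2 muscle libraries were 1.40 and 2.04 for Cish, 2.42 and 1.54 for Socs4, and -2.17 and -2.57 for Socs3. Socs4 is the least studied member, with epidermal growth factor receptor signalling as its best known target. In counts it had 396 in wild type kidney, against 26 and 51 in the wild type PBS muscle libraries.

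Cish and Socs2 put the muscle libraries in much the same order. The 4 highest libraries were tumour PBS, wild type DKK1, labelled knockout PBS and labelled knockout DKK1, in that order, for both genes. Genes were ranked by how close their log2 CPM, centred on the mean of the 7 muscle libraries, came to that of a member, as the root mean square difference among 11289 genes with 100 or more counts in a muscle library. Socs2 was the nearest gene to Cish with a difference of 0.85, followed by Rnd1 at 0.91, Rarres1 at 0.92, Ap5b1 at 0.93 and Nuak2 at 0.94. Socs2 itself had closer genes, Acsl3 at 0.22 and Kbtbd8 at 0.25, then Zfp874a, Plekhh1 and Slc7a2 at 0.26 to 0.32. From the Socs2 side, Cish ranked 8959 among the 11289 genes, so the rank was not mutual, though the difference of 0.85 is the same from either side. The measure is not scaled for range, and Cish spanned 14.1 times over the muscle libraries where Socs2 spanned 2.99 times. Even the nearest gene to Cish, at 0.85, was farther off than any of the genes named as closer to Socs2. For Socs3 the nearest was Junb, a STAT3-induced immediate early gene, at 0.12, with Tmem176b, Gmfg, Piezo1 and Btg1 at 0.29 to 0.30.

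Junb was at 39.5 CPM in tumour MDC, 76.2 CPM in tumour PBS, 20.8 CPM in labelled knockout DKK1, 17.5 CPM in labelled knockout PBS and 23.4 CPM in wild type DKK1 muscle, against 34.4 and 34.6 CPM in wild type PBS muscle. It was 2.81 to 3.63 times Socs3 in CPM in every muscle library. In kidney Junb was 2.72 times Socs3 in the tumour library and 10.02 times in the wild type library, so the ratio seen in muscle was not that of wild type kidney. These likenesses are over 7 libraries of 6 groups and share depth and tissue make-up. Among the libraries are the tumour and wild type PBS ones by whose Cish counts the family was chosen.

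**Figure D4:**
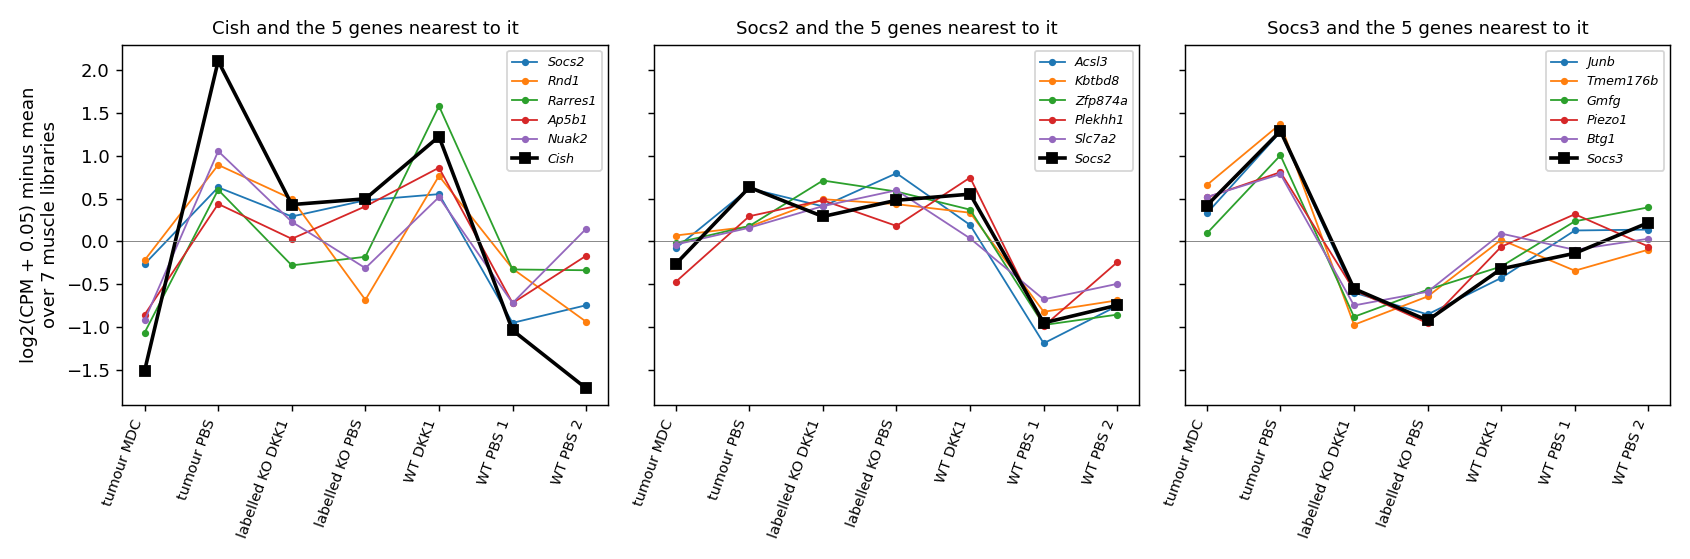
Level of Cish, Socs2 and Socs3 (black squares) and of the 5 genes nearest to each (coloured), as log2 of CPM plus 0.05 minus the mean over the 7 muscle libraries; each point is 1 library. The genes around Socs3 track it closely, and those around Cish span less than Cish does.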

How the data were processed

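The deposited tables, 1 per library, hold raw read counts for each gene as the authors left them, a gene length and the authors' RPKM. Reads were aligned with HISAT2 2.1.0 to mm10, per the submitters' processing notes, and the sources used here do not give the counter, annotation or strand setting. RPKM worked out again from counts and length lay within 0.000495% of the deposited RPKM for genes with 100 or more counts.

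Counts were scaled with TMM in edgeR 4.0.16 (R 4.3.3), in muscle and kidney separately and over all 9 libraries for the tissue comparison. Log2 CPM used a prior count of 2. The 7 muscle libraries entered 1 quasi-likelihood fit in edgeR with a coefficient for each group and Benjamini-Hochberg adjustment. filterByExpr (minimum count 10) left 15482 genes, all 8 members among them. Only the wild type PBS pair adds a residual degree of freedom, 1 in all, so every other library is taken to vary as that pair does, with 15.2 prior degrees of freedom added. The libraries of that pair carry different set letters, so their spread also holds any difference between sets. The common biological coefficient of variation was 0.498. The method was also run on simulated counts, whose variation between libraries was set below 0.498. That run cannot show how the method performs on these data.

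Ratios have exact conditional binomial 95% intervals, and 0 counts were set to 3 for bounds, both covering counting error only. The members and gene lists were chosen with earlier results of these data known. Genes named from a list were those past the size rule, at most 3 per direction by log2 change, plus Jak2, Stat3, Stat5a, Stat5b, Ghr, Il6ra and Il6st; Il6 was added after its values were seen. Cell type lists are given as sums, and 1 pathway list is not reported here. The contrast between DKK1 effects and that between the tumour effects of muscle and kidney were added after the values were seen. Alternatives were DESeq2 1.42.0, limma-voom (limma 3.58.1), other scalings, filters, folds and prior counts, and leaving out either wild type PBS library. Gene positions are from GENCODE M21. Of 8 members, 4 matched the promoter table.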

Additional observations from a re-analysis of the deposited data

How the results depend on the processing

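No paired analysis was possible because only wild type PBS muscle carries replicate numbers, and no label ties 2 libraries to 1 animal. With edgeR 0 of 15482 genes passed in each of the 7 muscle comparisons; at an unadjusted p under 0.05 there were 165 for tumour PBS against wild type PBS, 38 for tumour MDC against tumour PBS, 231 for tumour MDC, 206 for wild type DKK1 and 182 for labelled knockout PBS against wild type PBS, 48 for labelled knockout DKK1 against labelled knockout PBS and 218 against wild type DKK1. DESeq2 called 12, 0, 11, 4, 19, 0 and 6 genes in the same order, and limma-voom 0 in each. The cause of the difference between tools was not tested.

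Members past the size rule in tumour MDC against tumour PBS muscle numbered 1, and 3 under total counts alone, 2 with 10 counts and 3 at 1.5-fold. In labelled knockout PBS against wild type PBS they numbered 2, and 4 at 1.5-fold, and in labelled knockout DKK1 against labelled knockout PBS 0, and 1 with 10 counts. In labelled knockout DKK1 against wild type DKK1 they numbered 0, and 1 under total counts, 1 with 10 counts and 3 at 1.5-fold. The 10-count and 1.5-fold settings add members by construction. No called change reversed under any alternative run, and leaving out either wild type PBS library moved no member count by over 1.5 times. Scaling by total counts shifted the median gene by a log2 of 0.18 in tumour PBS against wild type PBS, -0.28 in tumour MDC against tumour PBS, -0.10 in tumour MDC against wild type PBS, 0.47 in wild type DKK1 against wild type PBS, 0.12 and -0.27 in labelled knockout DKK1 against labelled knockout PBS and wild type DKK1, and 0.58 between wild type kidney and muscle. Of single-member changes, 18 moved under total counts and 2, both of Socs1, under a prior count of 0.5. Depth limits Socs1 and Socs4, which stayed under 100 counts in every muscle library.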
